A study of Mus musculus with 8 samples.

Results

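Regulators of glycolysis and targets of the hypoxia response were measured in NMuMG, an epithelial line from the mouse mammary gland in which TGFbeta induces an epithelial-mesenchymal transition. The 10 genes were Pfkfb3, Pfkfb4, Hk2, Pdk1, Hif1a, Egln1, Egln3, Vegfa, Bnip3 and Car9. They were found by their symbol in the platform's probe table, where each had to be the only symbol of a probeset. All 10 were present, with 11 probesets among 34760 and as 10 of the 19937 genes tested. Total RNA was hybridised to 8 Affymetrix arrays in 4 groups of 2. The groups were cells stably transfected with a control vector (Control) or with a vector holding Major satellite sequences (Major), the tandem repeat of mouse pericentromeric heterochromatin, each untreated (0 h) or after 8 h of TGFbeta. The dose of TGFbeta, whether a line was a clone or a pool, and whether the arrays of a group came from separate cultures are not given in the sources used here. Each p-value therefore rests on the spread of these arrays alone, which may be technical, and their number limits the precision. Every group held 1 array of each of 2 title codes, which are called replicate number 1 and 2.

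Cells sense oxygen through prolyl hydroxylases of the Egln family, which mark the alpha subunits of hypoxia-inducible factor (HIF) for destruction by the Vhl ubiquitin ligase. When oxygen is low the alpha subunits persist, pair with Arnt and raise genes for glycolysis, angiogenesis, pH control and mitophagy. Several of these genes, such as those of the bifunctional enzymes Pfkfb3 and Pfkfb4 and of the growth factor Vegfa, can also be induced by other signals, TGFbeta among them.

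Values are deposited log2 levels, made with the robust multi-array average (RMA) method, so a difference of 1 is a doubling. Levels of different genes were not tested against each other, because probes differ in brightness. Where levels of several genes stand side by side, as for markers and dim genes, they are a rough description. Smad7, a feedback inhibitor of TGFbeta receptors, stood at 9.35 to 9.47 on the 4 untreated arrays and at 10.49 to 10.78 on the 4 treated ones. Among 8 epithelial markers, the keratin genes Krt8 and Krt18 stood at 13.50 or higher on every array and Cdh1, which encodes E-cadherin, at 12.72 or higher, whereas Epcam lay between 6.53 and 7.16 and Cldn7 between 6.70 and 7.03. The mean level of the 8 was 10.98 to 11.12, with 2 that rose in the average TGFbeta response (Epcam and Cldn3) and 1 that fell (Krt19, by 0.74). Epcam and Cldn7 lie close to 6.76, the 30th percentile of probeset means. The mean level of 8 fibroblast markers was 6.62 to 6.90 on the untreated arrays and 6.92 to 7.06 on the treated arrays. The collagen gene Col1a1 and the receptor genes Pdgfra and Pdgfrb were the 3 that passed in the average TGFbeta response, by 0.47, 0.66 and 0.29, while 3 of the 8 lay below 6.76 on average. The 7 measured endothelial and immune markers had a mean level of 7.01 to 7.32 on the untreated and 7.13 to 7.44 on the treated arrays, with 2 below 6.76 and 2 that rose (Cdh5 and Csf1r). Of these 8 marker calls, Krt19 and Pdgfra held without the replicate number and the other 6 did not (limma adjusted p from 0.0543 to 0.503). The part of other cells in the results was not tested, and more RNA per cell cannot be told apart from more cells of a type. Array medians were 7.72 to 7.76 in replicate number 1 and 7.88 to 7.92 in number 2.

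After 8 h of TGFbeta, 5 of the 10 genes rose and 1 fell in control vector cells, where 14.6% of all genes tested passed, 6.92% higher and 7.63% lower. In major satellite cells 4 rose and 1 fell, against 15.3% of all genes, 6.89% higher and 8.38% lower. The genes that rose with both vectors were Pfkfb4, Hk2, Pfkfb3 and Vegfa, and Egln1 was the further rise in control vector cells. Egln3 was the gene that fell. Hif1a, Pdk1, Bnip3 and Car9 passed in neither line. The median difference of the 10 genes was 0.21 with the control vector and 0.27 with the major satellite vector, beside 0.01 and 0.03 over all genes. Passing means an adjusted p below 0.05 in a limma model of all 8 arrays that held the replicate number as a term. In the limma model without that term 1.07% of all genes passed in control vector cells and 1.09% in major satellite cells. Of the 10 genes, 3 then passed in control vector cells (Pfkfb4, Pfkfb3 and Egln3) and 2 in major satellite cells (Pfkfb4 and Egln3). The members were chosen with earlier results of these arrays known, so their counts describe these genes and do not test them as a list.

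**Figure D1:**
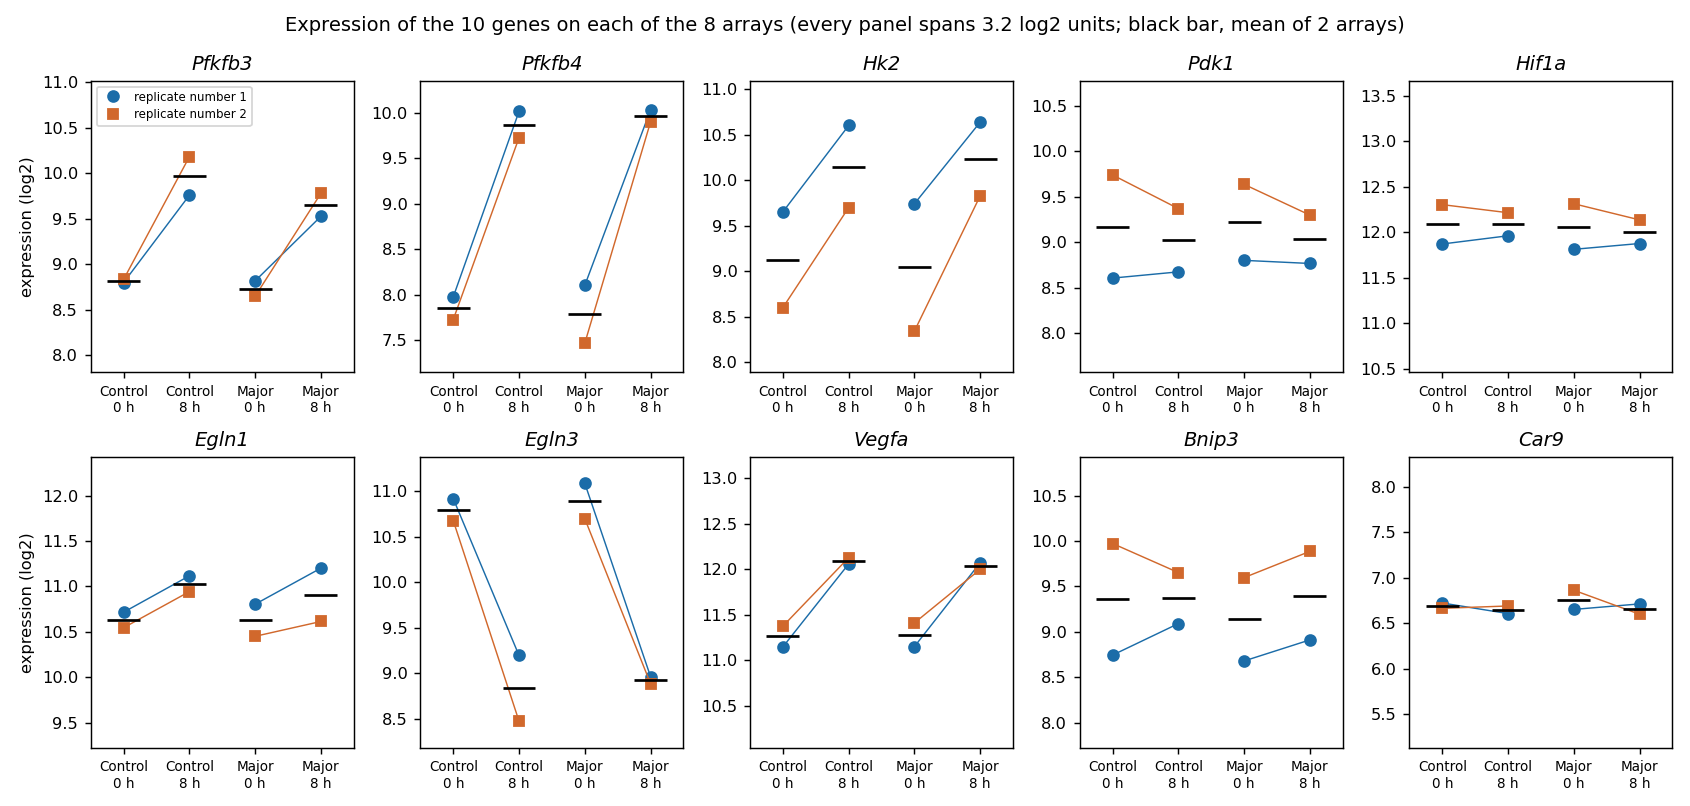
Expression (log2, vertical axis) of each of the 10 genes on each array, by vector and hours of TGFbeta (horizontal axis). Blue circles are replicate number 1, orange squares number 2, lines join the untreated and treated array of a number, and black bars are means of 2 arrays. Pfkfb4 rises by 1.93 to 2.43 and Egln3 falls in all 4 pairs, and Hk2, Pdk1 and Bnip3 are set apart by replicate number.

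The first group of genes controls entry into glycolysis and the fate of pyruvate. Pfkfb3 and Pfkfb4 encode bifunctional enzymes that make and remove the sugar bisphosphate that activates phosphofructokinase. Pfkfb4 stood at 7.98 and 7.73 on the untreated control arrays of replicate numbers 1 and 2, and at 10.02 and 9.73 after TGFbeta. In major satellite cells it was at 8.10 and 7.47 without TGFbeta and at 10.03 and 9.90 with it. Every treated array lay above every untreated array in both lines. Pfkfb4 rose by 2.02 ± 0.12 (SE, 2 arrays per group, 4.06-fold, limma adjusted p = 2.04e-05) in control vector cells and by 2.18 ± 0.12 (4.54-fold, adjusted p = 1.51e-05) in major satellite cells. It was higher in 4 of 4 pairs, and both calls held without the replicate number (adjusted p = 0.0188 and 0.0199).

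Pfkfb3, whose enzyme strongly favours making the activator, stood at 8.80 and 8.83 on untreated control arrays and at 9.76 and 10.18 on treated ones. In major satellite cells its values were 8.82 and 8.65 before and 9.53 and 9.78 after TGFbeta. The treated arrays did not overlap with the untreated ones. The gene rose by 1.15 ± 0.13 (2.23-fold, limma adjusted p = 0.000516) with the control vector and by 0.92 ± 0.13 (1.89-fold, adjusted p = 0.00178) with the major satellite vector. Its pairs ranged from 0.71 to 1.35. Without the replicate number the second of these calls was lost (limma adjusted p = 0.045 and 0.0861).

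The promoters of these enzymes and of Hk2, which rose with both vectors, are shown. Vegfa rose with both vectors as well, and its windows are described below without their letters. They come from RefSeq on GRCm38.p6, run 5′ to 3′ on the gene's strand from 250 bases before to 50 after a transcript start, and carry in capitals the HIF core letters ACGTG or GCGTG on either strand (CACGT or CACGC when read on the other strand). Pfkfb3 has 2 listed starts, both on the minus strand, the upstream one at chr2:11553880-11554179 and the downstream one at chr2:11502041-11502340. Pfkfb4 lies at chr9:108991652-108991951 on the plus strand and Hk2 at chr6:82774405-82774704 on the minus strand.
Pfkfb3 upstream start: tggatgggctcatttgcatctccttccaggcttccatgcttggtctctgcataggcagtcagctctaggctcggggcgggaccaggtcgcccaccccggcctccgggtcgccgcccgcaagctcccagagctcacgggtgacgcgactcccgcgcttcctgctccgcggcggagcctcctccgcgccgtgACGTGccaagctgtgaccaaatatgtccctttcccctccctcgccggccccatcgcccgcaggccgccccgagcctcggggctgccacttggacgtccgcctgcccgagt
Pfkfb3 downstream start: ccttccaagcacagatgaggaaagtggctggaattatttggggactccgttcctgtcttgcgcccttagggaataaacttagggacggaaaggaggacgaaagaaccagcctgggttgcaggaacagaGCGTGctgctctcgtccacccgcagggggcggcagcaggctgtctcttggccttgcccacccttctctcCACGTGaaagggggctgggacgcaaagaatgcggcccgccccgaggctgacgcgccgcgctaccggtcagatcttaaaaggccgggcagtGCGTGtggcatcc
Pfkfb4: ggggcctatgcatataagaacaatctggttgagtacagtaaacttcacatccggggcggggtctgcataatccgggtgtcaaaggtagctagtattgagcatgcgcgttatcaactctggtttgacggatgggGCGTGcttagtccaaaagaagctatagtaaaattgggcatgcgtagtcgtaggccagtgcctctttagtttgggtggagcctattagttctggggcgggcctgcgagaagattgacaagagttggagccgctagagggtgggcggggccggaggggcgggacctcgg
Hk2: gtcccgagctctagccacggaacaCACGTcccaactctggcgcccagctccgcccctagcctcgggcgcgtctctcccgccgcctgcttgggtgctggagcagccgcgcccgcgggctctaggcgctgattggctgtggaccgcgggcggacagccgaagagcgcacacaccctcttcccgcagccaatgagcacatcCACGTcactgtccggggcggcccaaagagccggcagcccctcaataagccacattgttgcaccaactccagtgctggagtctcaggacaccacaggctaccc

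The upstream Pfkfb3 promoter held 1 core, from -60 to -56 relative to the start, and the downstream one held 4 matches. Of those 4, a pair overlaps in the palindrome CACGTG between -53 and -48, which is read on both strands. The Pfkfb4 window held 1 core, from -117 to -113, and that of Hk2 held 2, from -226 to -222 and from -52 to -48. Vegfa, not shown, has an upstream window with 0 cores and a downstream one with 2. Of 32851 RefSeq promoters of this length, 43.8% held at least 1 core, so its presence is common. A match describes letters in the window and is not a measured binding site.

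Hk2 encodes a hexokinase that traps glucose in the cell and is attached to mitochondria. Its untreated control arrays read 9.65 and 8.60 and its treated ones 10.60 and 9.70. In major satellite cells it read 9.74 and 8.34 untreated and 10.64 and 9.83 treated. Over the 8 arrays treated and untreated values overlapped, since the treated control array of number 2 (9.70) lay below the untreated major satellite array of number 1 (9.74), while within each line the treated arrays were the higher ones. Within each number Hk2 was higher after TGFbeta in 4 of 4 pairs, by 0.90 to 1.49. It rose by 1.02 ± 0.13 (2.03-fold, limma adjusted p = 0.00101) in control vector cells and by 1.19 ± 0.13 (2.29-fold, adjusted p = 0.000476) in major satellite cells. Without the replicate number neither passed (limma adjusted p = 0.835 and 0.664).

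Pdk1 encodes a kinase that blocks pyruvate dehydrogenase and so keeps pyruvate out of mitochondrial oxidation. It read 8.60 and 9.74 on untreated and 8.67 and 9.37 on treated control arrays, and 8.80 and 9.64 on untreated and 8.77 and 9.30 on treated major satellite arrays. The arrays grouped by replicate number and not by treatment. The TGFbeta difference was -0.15 ± 0.13 (limma adjusted p = 0.559) with the control vector and -0.19 ± 0.13 (adjusted p = 0.397) with the major satellite vector. In the average over both vectors it was -0.17 ± 0.09 (adjusted p = 0.239), and it passed at -0.28 (adjusted p = 0.0434) when the untreated control array of replicate number 1 was left out.

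The second group senses oxygen. Egln3 encodes a prolyl hydroxylase acting on HIF and is itself a well known HIF target. It stood at 10.92 and 10.68 on the untreated control arrays and at 9.19 and 8.47 on the treated ones. The untreated major satellite arrays read 11.09 and 10.70 and the treated ones 8.96 and 8.88. All 4 treated arrays lay below all 4 untreated ones. Egln3 fell by 1.96 ± 0.14 (3.90-fold lower, limma adjusted p = 4.31e-05) with the control vector and by 1.97 ± 0.14 (3.92-fold lower, adjusted p = 4.72e-05) with the major satellite vector. It was lower in 4 of 4 pairs, and it passed without the replicate number as well (limma adjusted p = 0.0276 and 0.031).

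Egln1 encodes the main oxygen-dependent hydroxylase of HIF alpha subunits and moved the other way. Its control vector arrays read 10.72 and 10.55 untreated and 11.12 and 10.94 treated, with no overlap. Its major satellite arrays read 10.81 and 10.45 untreated and 11.20 and 10.62 treated, and there the groups overlapped. The gene was 0.40 ± 0.11 higher (1.32-fold, limma adjusted p = 0.0459) with the control vector and passed. With the major satellite vector the difference was 0.28 ± 0.11 (adjusted p = 0.14), which did not pass. The average of both vectors was 0.34 ± 0.08 (adjusted p = 0.0129). The call in control vector cells rested on few arrays. It was lost without the replicate number (adjusted p = 0.808). It was also lost when any 1 control vector array or either untreated major satellite array was left out, with differences of 0.30 to 0.50 and adjusted p up to 0.364. The average was lost without the replicate number (adjusted p = 0.415), and with it when any 1 of 3 arrays was left out, namely the untreated control array of number 1 (0.29, adjusted p = 0.0579), the treated control array of number 2 (0.29, adjusted p = 0.0696) or the untreated major satellite array of number 2 (0.33, adjusted p = 0.0544).

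Hif1a encodes the oxygen-regulated alpha subunit, which is controlled mainly through protein stability. It read 11.87 and 12.30 on untreated and 11.96 and 12.22 on treated control arrays. Its major satellite values were 11.81 and 12.31 untreated and 11.88 and 12.14 treated. Treated values lay between the untreated ones in both lines. The TGFbeta differences were 0.00 ± 0.09 (limma adjusted p = 0.998) and -0.06 ± 0.09 (adjusted p = 0.745). Their average was -0.03, with a 95% confidence interval from -0.18 to 0.12.

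Egln3 is the member that fell, and its promoter is shown for that reason. It spans chr12:54203825-54204124 on the minus strand, with its capitals marking the same HIF core.
Egln3: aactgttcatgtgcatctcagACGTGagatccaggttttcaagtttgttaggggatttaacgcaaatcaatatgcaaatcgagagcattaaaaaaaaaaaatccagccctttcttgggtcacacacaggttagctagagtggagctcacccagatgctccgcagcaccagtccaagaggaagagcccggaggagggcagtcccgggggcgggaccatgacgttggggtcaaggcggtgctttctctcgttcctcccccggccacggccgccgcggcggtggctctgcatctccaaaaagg
It held 1 core, from -229 to -225, and next to it the letters CAGAC, which Smad proteins are known to bind, from -232 to -228, so the pair overlaps. CAGAC was present on either strand in 49.6% of all promoters and in 8 of the 13 promoters of the 10 genes.

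The remaining members are HIF targets with other roles. Vegfa encodes the main angiogenic growth factor. Its untreated control arrays read 11.15 and 11.38 and its treated ones 12.06 and 12.13. In major satellite cells the values were 11.15 and 11.41 untreated and 12.07 and 12.00 treated. The treated arrays lay close together, between 12.00 and 12.13, and above every untreated array. Vegfa rose by 0.83 ± 0.10 (1.78-fold, limma adjusted p = 0.000723) and by 0.76 ± 0.10 (1.69-fold, adjusted p = 0.00124). Without the replicate number each line missed the threshold (adjusted p = 0.0602 and 0.0809), while the average of 0.79 passed in both models (adjusted p = 5.65e-05 and 0.00929).

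Bnip3 encodes a mitochondrial protein that promotes mitophagy. It has 2 probesets with its symbol, and the brighter one was used. That probeset read 8.75 and 9.97 on untreated and 9.09 and 9.65 on treated control arrays, and 8.68 and 9.60 on untreated and 8.91 and 9.89 on treated major satellite arrays. The arrays again grouped by replicate number. TGFbeta differences were 0.01 ± 0.14 (limma adjusted p = 0.972) and 0.26 ± 0.14 (adjusted p = 0.252). The other probeset read 8.30, 8.89, 8.16 and 8.49 on the control arrays and 8.01, 8.46, 8.24 and 8.77 on the major satellite arrays, each as untreated number 1 and 2 and then treated number 1 and 2. With it the differences were -0.27 (adjusted p = 0.0946) and 0.27 (adjusted p = 0.0868), so the probesets disagree in control vector cells and neither passed. The difference between the responses of both vectors was 0.54 with this probeset (limma adjusted p = 0.999).

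The Bnip3 promoter, at chr7:138909457-138909756 on the minus strand, is shown because it held the most HIF core matches of the 13 windows although the gene did not pass.
Bnip3: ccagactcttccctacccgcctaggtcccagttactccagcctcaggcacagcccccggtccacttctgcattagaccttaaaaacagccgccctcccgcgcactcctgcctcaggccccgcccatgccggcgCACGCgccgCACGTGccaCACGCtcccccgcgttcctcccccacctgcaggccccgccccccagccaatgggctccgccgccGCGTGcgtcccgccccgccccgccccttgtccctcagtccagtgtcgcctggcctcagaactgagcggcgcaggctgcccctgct
It held 5 matches, of which a pair overlaps in CACGTG between -108 and -103, and 1.66% of all promoters held 5 or more. At least 1 core was found in 11 of the 13 windows, beside 43.8% of all promoters. The genes were picked as glycolysis regulators and hypoxia targets, so this contrast describes them and was not tested. The share over all promoters counts single windows and was not matched for base composition. The windows without a core were the upstream one of Vegfa and the downstream one of Pdk1. Counting either window of a gene with 2, every one of the 10 genes had a core, those that rose, the one that fell and those that did not pass. Vegfa counts here only through its downstream window (chr17:46025114-46025413), since the upstream one (chr17:46032328-46032627) had none. Whether letters in a window lie in coding sequence was not examined, so a core there need not be in a promoter.

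Car9 encodes a membrane carbonic anhydrase that is among the most HIF-dependent genes in many tumours. It lay between 6.60 and 6.86 on the 8 arrays, and its mean was below the 30th percentile of probeset means. The TGFbeta differences were -0.05 ± 0.10 (limma adjusted p = 0.849) and -0.10 ± 0.10 (adjusted p = 0.557). At so dim a probeset a change may not be detectable.

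**Figure D2:**
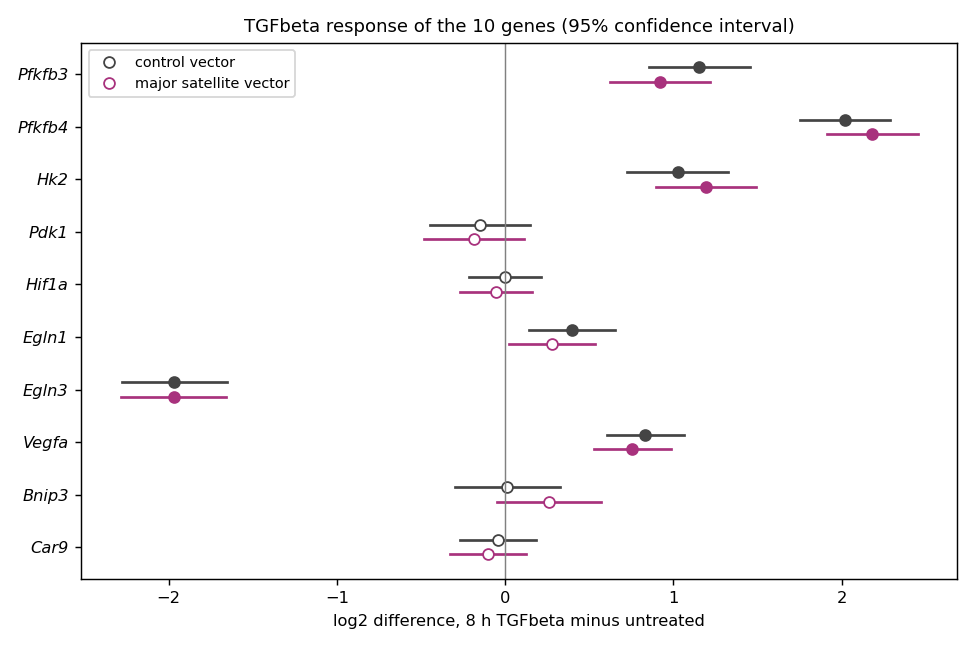
TGFbeta response (log2 difference, 8 h minus untreated, horizontal axis) of the 10 genes in control vector cells (grey) and major satellite cells (purple). Points are fitted differences over 2 arrays per group, lines their 95% confidence intervals, and filled points passed at an adjusted p under 0.05. The intervals of the 2 lines overlap for every gene, and Pfkfb4 (2.02 and 2.18) and Egln3 (-1.96 and -1.97) stand farthest from 0.

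The next comparison asked whether the major satellite vector changed these responses. None of the 10 genes passed in the difference between the TGFbeta responses, major satellite minus control vector (limma adjusted p = 0.999 for each). With the brighter Bnip3 probeset, 0 of them had an unadjusted p under 0.05. Over all genes 0 passed in limma, which is 0.0%, with 658 at an unadjusted p under 0.05, and 0 passed without the replicate number. The fitted differences ran from -0.23 for Pfkfb3 to 0.25 for Bnip3. Their 95% confidence intervals reached from -0.66 at the lowest to 0.69 at the highest, bounds that belong to Pfkfb3 and Bnip3. Pfkfb3 had the interval from -0.66 to 0.19 and Pfkfb4 that from -0.22 to 0.54. Narrower intervals were those of Vegfa, from -0.40 to 0.25, and Hif1a, from -0.36 to 0.25. For Egln3 the difference was -0.01 with an interval from -0.45 to 0.43. The other Bnip3 probeset, outside this range, gave a difference of 0.54. With it 659 genes in place of 658 had an unadjusted p under 0.05 in limma. These fits differ only in the values of Bnip3, so the count of 0 members above holds for the brighter probeset alone.

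Major satellite cells were also set against control vector cells at the same treatment. With the brighter Bnip3 probeset, 0 of the 10 genes passed in limma without TGFbeta, beside 0.0301% of all genes, and 0 had an unadjusted p under 0.05. With TGFbeta 0 passed, beside 0.0301% of all genes, and 1 had an unadjusted p under 0.05. That gene was Pfkfb3, at -0.32 ± 0.13 (95% confidence interval from -0.62 to -0.02, limma adjusted p = 0.752), which was lower in both replicate numbers, by -0.23 and -0.40. In the average over both treatments 0 passed, beside 0.0853%, and Pfkfb3 was at -0.20 ± 0.09 (adjusted p = 0.874). The other members' average differences lay between -0.10 for Bnip3 and 0.09 for Egln3. Intervals at a single treatment reached from -0.62 to 0.41. The other Bnip3 probeset was at -0.29 and -0.42 in the 2 replicate numbers without TGFbeta, and at 0.08 and 0.28 with it. It passed at neither treatment. With it 655 genes in place of 654 had an unadjusted p under 0.05 in limma without TGFbeta. Only the values of Bnip3 differ between these fits, so the 0 members without TGFbeta hold for the brighter probeset alone. Leaving out the treated major satellite array of number 1 raised the count over all genes with TGFbeta from 6 to 107, and none of the 10 genes was among them.

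**Figure D3:**
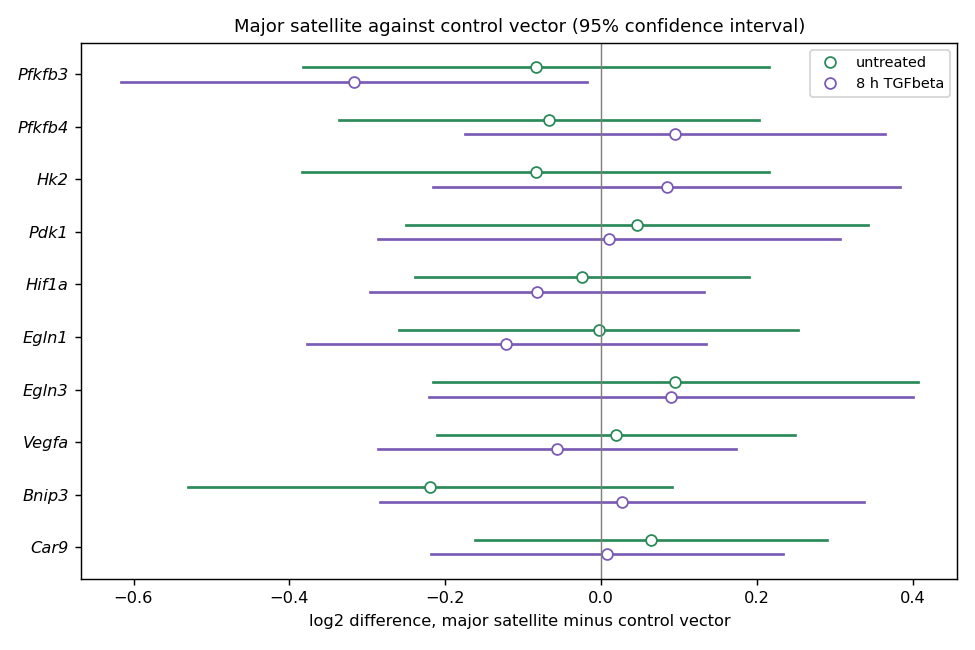
Major satellite minus control vector (log2 difference, horizontal axis) for the 10 genes, untreated (green) and after 8 h of TGFbeta (violet). Points are fitted differences over 2 arrays per group with 95% confidence intervals, and open points did not pass. No gene passed, and Pfkfb3 with TGFbeta (-0.32) is farthest from 0 among these points, in which Bnip3 stands for its brighter probeset.

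Bnip3, Pdk1 and Hif1a differed more between replicate numbers than between treatments on average, and for Hk2 and Egln1 both differences were of similar size. Hk2 was lower in number 2 in all 4 groups, by 1.04 on average. Bnip3 was higher in number 2 in all 4 groups, by 0.92 on average, and Pdk1 by 0.80. Hif1a was 0.36 higher, whereas Pfkfb4 (-0.33), Egln1 (-0.32) and Egln3 (-0.36) were lower in number 2 in all 4 groups. Pfkfb3, Vegfa and Car9 did not keep 1 sign over the groups. Over all genes the 5th and 95th percentiles of the mean difference were -0.53 and 0.60, and 12.6% of genes differed by more than 0.5 in size. These are differences between the arrays of 2 title codes, described with no test, and what set the codes apart is not given in the sources used here.

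**Figure D4:**
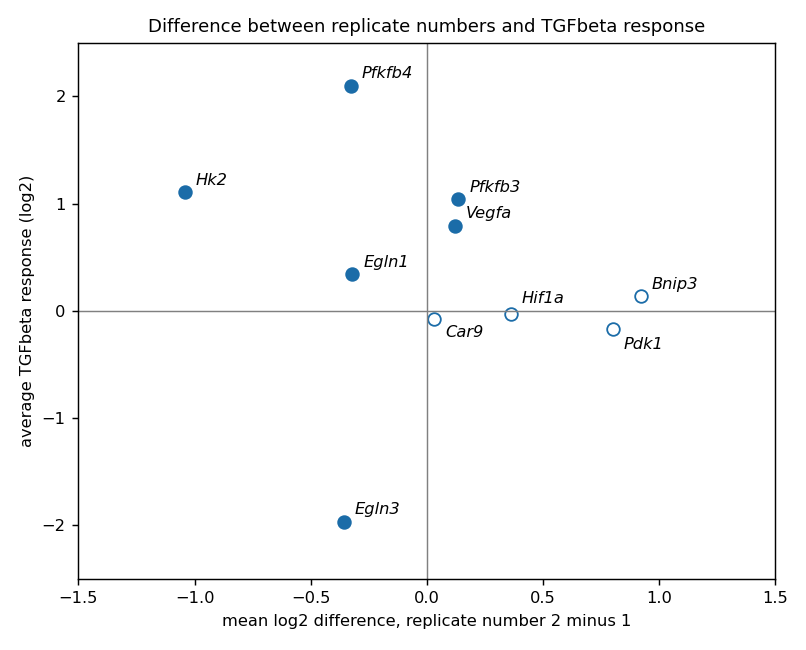
Mean log2 difference between replicate numbers (number 2 minus number 1 over the 4 groups, horizontal axis) against the average TGFbeta response (log2, vertical axis) for the 10 genes. Filled points passed for TGFbeta. Bnip3 and Pdk1 differ by number (0.92 and 0.80) and little by TGFbeta (0.14 and -0.17), Hk2 differs by both, and Pfkfb3 and Vegfa mainly by TGFbeta.

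Genes of the same pathways were taken from lists that leave out the 10 members, and are given by the average TGFbeta response of both vectors, in which 5 of the 10 members rose and 1 fell. The background there was 24.3% of all genes passing, with 11.2% higher and 13.1% lower. In the limma model without the replicate number 4.83% of all genes passed, and of the 10 members 3 rose (Pfkfb3, Pfkfb4 and Vegfa) and 1 fell (Egln3), with Hk2 (adjusted p = 0.275) and Egln1 lost. Of 18 measured glycolytic enzymes 2 rose, 3 fell and 13 did not pass, with a median difference of -0.05 beside 0.02 over all genes. The rises were Eno3, the muscle form of enolase (0.45 ± 0.07, limma adjusted p = 0.00153), and Pfkp, the platelet form of phosphofructokinase (0.43 ± 0.09, adjusted p = 0.00546). The falls were Pfkm, the muscle form of phosphofructokinase (-0.39 ± 0.07), Pklr, the liver form of pyruvate kinase (-0.38 ± 0.07), and, outside the naming rule, Pgk1, phosphoglycerate kinase (-0.20 ± 0.06). Of these 5, Eno3 alone passed without the replicate number.

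Of 13 genes that control fructose bisphosphate and pyruvate use, 1 rose, 3 fell and 9 did not pass, with a median of -0.13. Pdk4, like Pdk1 a kinase of pyruvate dehydrogenase, read 7.17 and 6.72 on untreated and 8.03 and 7.97 on treated control arrays, and 7.26 and 7.01 on untreated and 7.97 and 8.22 on treated major satellite arrays. It rose by 1.01 ± 0.10 (limma adjusted p = 0.000114, and 0.0107 without the replicate number). Pfkfb2, a paralogue of Pfkfb3 and Pfkfb4, fell by 0.35 ± 0.07. Tigar, whose protein lowers the same sugar bisphosphate, fell by 0.26 ± 0.06, and Fbp2, a fructose bisphosphatase, by 0.47 ± 0.07. Those 3 falls did not pass without the replicate number (limma adjusted p = 0.718, 0.511 and 0.108). Within the Pfkfb family, 2 of the 3 measured genes therefore rose and the other fell.

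Of 16 HIF subunits and regulators, 3 rose, 1 fell and 12 did not pass, with a median of 0.05. Arnt2, a partner of HIF alpha subunits (0.47 ± 0.06), Cited2, which competes with HIF for its coactivators (0.34 ± 0.06), and the ubiquitin ligase gene Siah1a (0.26 ± 0.08) rose. Epas1, which encodes the other main HIF alpha subunit, fell by 0.33 ± 0.07. None of these 4 passed without the replicate number (limma adjusted p from 0.0873 to 0.852). Vhl (0.07), Arnt (0.07), Egln2 (0.04) and Hif1an (0.02), given here outside the naming rule, did not pass in either model.

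Of 27 other hypoxia-inducible genes 8 rose, 4 fell and 15 did not pass, with a median of 0.06. Bhlhe40, a repressor that HIF and TGFbeta both induce, rose by 1.81 ± 0.07 (limma adjusted p = 7.65e-07), Ddit4, an inhibitor of mTOR signalling, by 1.69 ± 0.09 (adjusted p = 3.78e-06), and the lipid droplet gene Plin2 by 0.89 ± 0.06 (adjusted p = 1.32e-05). The transferrin receptor gene Tfrc fell by 0.79 ± 0.07 (adjusted p = 3.67e-05). Bhlhe40, Ddit4 and Plin2 passed without the replicate number as well, and Tfrc did not (adjusted p = 0.144). The other passing genes of this list, given outside the naming rule, were Ccng2 (0.70), Lox (0.65), P4ha2 (0.48), Slc2a1, which encodes a glucose transporter (0.31), and P4ha1 (0.25) among the rises and Hilpda (-0.36), Vldlr (-0.27) and Ero1a (-0.24) among the falls. Of these 8, Lox passed without the replicate number (limma adjusted p = 0.0286) and the other 7 did not.

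Of 9 members of the VEGF family and its receptors apart from Vegfa, 2 rose, 4 fell and 3 did not pass, with a median of -0.20. Vegfc, a growth factor for lymphatic vessels, rose by 1.34 ± 0.06 (limma adjusted p = 1.61e-06) and Vegfd, its closest relative, fell by 0.59 ± 0.07. The co-receptor Nrp2 rose by 1.22 ± 0.09 and the co-receptor Nrp1 fell by 0.91 ± 0.06. Vegfc read 8.52 to 8.70 on the untreated and 9.83 to 10.12 on the treated arrays, and Nrp1 11.31 to 11.62 and 10.39 to 10.75. Vegfd did not pass without the replicate number (adjusted p = 0.293), and the other 3 did. Of 15 carbonic anhydrases apart from Car9, 0 rose, 2 fell and 13 did not pass. Some of those that did not pass were as dim as Car9, such as Car3 (6.12 to 6.48) and Car8 (5.82 to 6.11), so a change may not be detectable. The 2 that fell were the cytosolic forms Car2 (-0.67 ± 0.07) and Car13 (-0.57 ± 0.08), neither of which passed without the replicate number (limma adjusted p = 0.113 and 0.104). None of the genes on these 6 lists passed in the average difference between vectors.

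**Figure D5:**
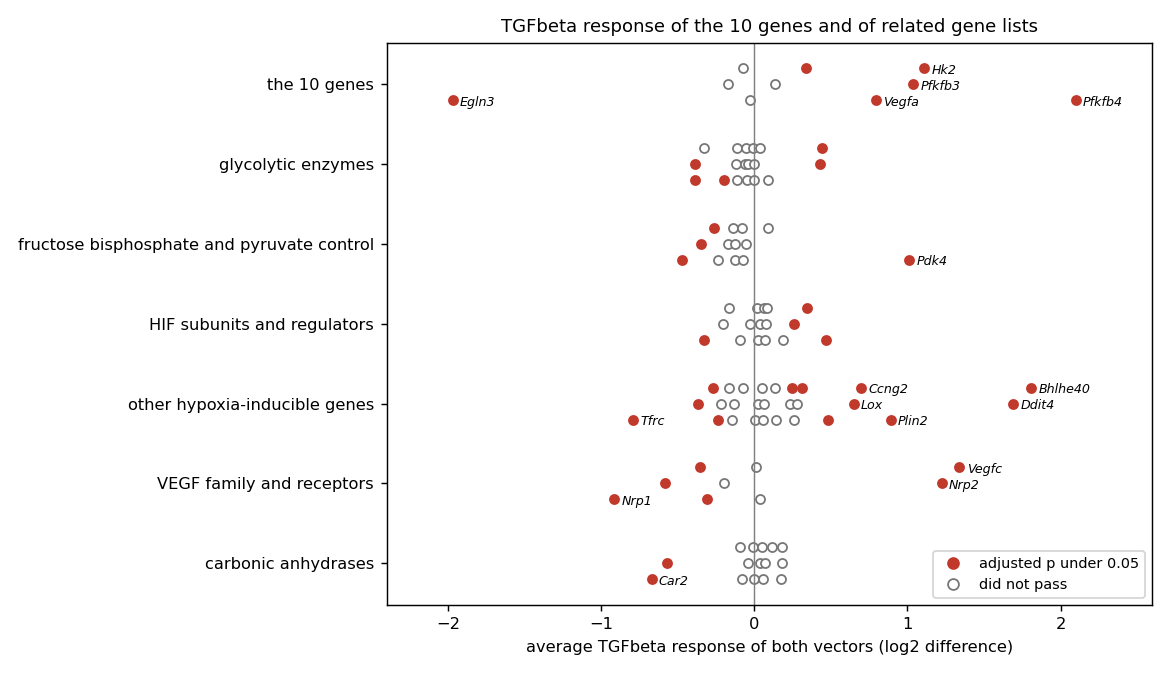
Average TGFbeta response of both vectors (log2 difference, horizontal axis) for the 10 genes and for 6 lists of related genes (rows). Each point is 1 gene, red points passed at an adjusted p under 0.05, and passing genes beyond 0.6 in size are named. Most glycolytic enzymes lie close to 0, while Bhlhe40 (1.81), Ddit4 (1.69) and Vegfc (1.34) lie near the members that rose.

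The genes whose values were most like those of a member were found by Pearson correlation over the 8 arrays after subtracting the mean of each replicate number, among 9967 genes. Nearest to Pfkfb4 were Esyt1 (r = 0.999), Amotl1 (r = 0.999) and Las1l (r = 0.998). For Pfkfb3 they were Fam214b, Golgb1 and Egfr, each at r = 0.997. Egln3 was most like Smc2 (r = 0.997), a condensin subunit, Zdhhc21 (r = 0.996) and Ly6g2 (r = 0.996). These are descriptions with no test. The arrays share the contrast of treated with untreated cells, and 611 to 750 genes had r above 0.95 with each of these members.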

How the data were processed

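Expression was measured on 8 arrays. The deposited table held log2 values per probeset, and RMA and limma are named per the submitters' processing notes, with versions, roles and genome build not given in the sources used here. Values were used as deposited. Of 34760 probesets, 21640 had 1 gene symbol, 1321 had several and the probe table did not list 11799; symbols were updated through Entrez identifiers with RefSeq (GRCm38.p6). The brightest probeset stood for a gene, which gave 19937 genes.

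All comparisons came from 1 model in R 4.3.3 by limma 3.58.1 (functions lmFit, contrasts.fit and eBayes), with 4 group means and the replicate number as terms (3 residual degrees of freedom), two-sided, Benjamini-Hochberg adjusted over all genes. Errors are standard errors. The pairing comes from the code shared by array titles. Across genes, deviations of same-numbered arrays from their group means correlated at 0.758 to 0.874. Named genes were the 10 members, up to 4 genes per list passing for TGFbeta and up to 2 passing between vectors by smallest p, the 3 genes most like Pfkfb3, Pfkfb4 and Egln3 and, as a check, Smad7. Members, lists and the model with the replicate number were chosen with earlier results of these data known. Of the related lists, 5 glycolytic enzymes and 2 pyruvate control genes were not analysed here. Alternatives were no replicate number, only the arrays compared, mean of probesets, a filter on dim genes, quantile or median scaling, trend and robust eBayes, each array left out and, added after the data had been seen, the other Bnip3 probeset.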

Additional observations from a re-analysis of the deposited data

How the results depend on the processing

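Without the replicate block, 3 of the 10 genes passed in control vector cells in place of 6 and 2 in place of 5 in major satellite cells, and 4 in place of 6 in the average response. Over all genes the fit without this pairing called 214 in place of 2901, 218 in place of 3044 and, for the average response, 962 in place of 4841. All of those 214, 218 and 962 were also called with it. Between vectors it called 1 gene in place of 6 without TGFbeta, 1 in place of 6 with it and 2 in place of 17 on average. With only the arrays of the groups compared, the counts were 1997 for TGFbeta in major satellite cells, 16 between vectors without TGFbeta and 56 with it. Between vectors without TGFbeta, quantile normalization called 3 genes and eBayes with trend and robust settings 1. Leaving out 1 array gave 5 or 6 of the 10 genes in control vector cells and in the average response, 5 in major satellite cells and 0 in the comparisons between vectors. Over all genes it gave 1202 to 3161 and 1228 to 3020 in the 2 lines, 3498 to 4860 on average, 0 to 17 for the difference between responses, and 2 to 9, 1 to 107 and 8 to 49 between vectors. The highest of these, 17, 107 and 49, came without the treated major satellite array of number 1, and the cause was not tested.

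Of 1020 values of single members under the alternatives, 17 lost the call, 8 of them without the replicate block and 9 with 1 array left out (all Egln1), 1 gained it (Pdk1), and 0 called values changed sign. Values called neither in the main fit nor in the alternative changed sign in 82 cases, counted with no limit on their size. The filter on dim genes removed Car9 and kept the other 9. Signal over background is not known for these arrays, which limits what can be said of dim genes such as Car9.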
